A study of Mus musculus with 2 samples.

Results

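The 9 genes described here encode the enzymes and cofactors that add N6-methyladenosine (m6A) to messenger RNA and the enzymes that remove it. They were taken by symbol from the gene table of the study, where all 9 were found among 31053 genes. The writers are Mettl3, Mettl14, Wtap, Zc3h13, Cbll1, Rbm15 and Rbm15b, and the erasers are Alkbh5 and Fto. The data are single-cell RNA counts from CD45+ immune cells sorted from tumours of C57BL/6 mice, made with a droplet method that reads transcripts from their 5′ end. The design has 1 library labelled WT and 1 labelled Ythdf2 cKO, a conditional knockout of Ythdf2, a cytoplasmic protein that binds m6A and promotes decay of the bound RNA. The Cre driver, the tumour model and the number of mice behind each library are not stated in the labels. Tumours of both groups were dissociated with collagenase and DNase, cleared of red cells and sorted in the same way.

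m6A is placed on nascent transcripts by a large nuclear complex. Mettl3 carries the catalytic site and Mettl14 holds the RNA beside it, while Wtap and the other regulatory subunits keep the pair in nuclear speckles and direct it to its targets. Alkbh5 and Fto are oxygenases that remove methyl groups from RNA, and Fto also acts on the cap-adjacent form of the mark. In immune cells the mark is known for setting the lifetime of transcripts during T cell activation, B cell maturation and the interferon response.

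After filtering, 10992 cells of the library labelled WT and 9086 of the library labelled cKO were kept, with median depths of 5128 and 7997.5 unique molecular identifiers (UMIs, each a counted transcript molecule) per cell. The 2 libraries shared 24 cell barcodes. Marker genes assigned the cells to classes, of which 9 reached 100 cells in both libraries and were compared. The ending "-like" stands for a name given by RNA alone. They were macrophage-like (1390 and 361 cells, the library labelled WT first), monocyte-like (1380 and 1734), cDC2-like, that is, type 2 conventional dendritic cells (102 and 101), B-like (329 and 191), CD8 T-like (427 and 1357), CD4 T-like (261 and 176), regulatory T-like (249 and 187), other T-like (1716 and 1133) and NK-like (975 and 1324). CD8 T-like cells needed UMIs of both Cd8a and Cd8b1, and other T-like cells were the T cells that met no subset rule. Other T-like cells can thus include CD8 or CD4 T cells whose markers were not counted. Their median depths were 3514.5 and 6333 UMIs, against 5162 and 7179 in CD8 T-like cells. The part of this in the T-like ratios was not tested. Cells that passed several gates (1639 and 1209) or none (1732 and 1030) entered no class. Ptprc, which encodes CD45, was found in 70.2% to 100% of the cells of each compared class, and 140 and 13 cells passed the gate for melanocytic genes. Each level is given as UMIs of the gene per 1000000 UMIs of the class (CPM), the library labelled WT first where values come in pairs. CPM from 5′ counts carries no length scaling, so a gene's level is compared between classes and not with another gene's level.

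Each label has 1 library and hence no replicate, so the labels could not be tested against each other. Intervals in parentheses are exact 95% intervals for counting error only. They leave out the differences between cells of a class, between mice and between preparations. A gene was called higher or lower at 1.5-fold on the scale of log2(CPM + 1), which is a size and not a test. The label itself was checked on Ythdf2. It was higher where the label says cKO, at 77.7 against 455 CPM among macrophage-like cells and 50.6 against 399 CPM among monocyte-like cells. CD8 T-like cells held 51.6 and 68.7 CPM, and NK-like cells 54.5 and 64.3 CPM. Among cDC2-like cells it was 60.7 and 118 CPM, and among B-like cells 50.6 and 54.9 CPM. The counts thus showed no loss of Ythdf2 RNA under the label cKO, and this check cannot settle whether the label is right. Whether counts from the 5′ end lie outside the deleted part of the gene was not tested. Each direction below is therefore one between libraries as labelled.

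All 9 genes are protein-coding genes of the mouse genome build GRCm38. Upstream sequences are shown for 4 of them because their levels fall into different patterns. Mettl3 and Zc3h13 were higher in lymphoid than in myeloid classes, whereas Wtap and Alkbh5 were nearly level between them. Each sequence is a RefSeq window of GRCm38.p6, read 5′ to 3′ along the gene's strand, from 250 bases before to 50 bases after the annotated start. Capitals mark matches, on either strand, to 4 motifs: the ETS core CCGGAAG (or CTTCCGG), the E-box CACGTG, the GC box GGGCGG (or CCGCCC) and the CCAAT box (or ATTGG).
Mettl3 (chr14:52305075-52305374, minus strand) and Zc3h13 (chr14:75284116-75284415, plus strand) each held the ETS core:
Mettl3: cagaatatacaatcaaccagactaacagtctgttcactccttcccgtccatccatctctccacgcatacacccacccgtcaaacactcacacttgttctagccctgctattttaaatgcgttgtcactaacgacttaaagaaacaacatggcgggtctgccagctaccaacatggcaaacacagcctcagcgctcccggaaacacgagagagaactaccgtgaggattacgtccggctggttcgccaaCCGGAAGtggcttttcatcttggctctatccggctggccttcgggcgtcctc
Zc3h13: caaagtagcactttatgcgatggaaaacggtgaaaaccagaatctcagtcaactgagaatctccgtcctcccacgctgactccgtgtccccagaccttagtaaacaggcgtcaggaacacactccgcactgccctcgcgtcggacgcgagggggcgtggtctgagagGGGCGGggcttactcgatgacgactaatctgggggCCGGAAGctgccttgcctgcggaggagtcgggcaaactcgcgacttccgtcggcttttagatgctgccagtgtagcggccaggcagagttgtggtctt
Wtap (chr17:12992494-12992793, minus strand) and Alkbh5 (chr11:60537433-60537732, plus strand) held GC boxes and a CCAAT box and no ETS core:
Wtap: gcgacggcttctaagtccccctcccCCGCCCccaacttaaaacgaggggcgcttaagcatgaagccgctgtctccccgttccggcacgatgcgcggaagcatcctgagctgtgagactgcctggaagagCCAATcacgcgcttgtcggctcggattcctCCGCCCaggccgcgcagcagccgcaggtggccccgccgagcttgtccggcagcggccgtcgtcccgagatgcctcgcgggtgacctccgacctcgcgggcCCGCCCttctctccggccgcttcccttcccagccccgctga
Alkbh5: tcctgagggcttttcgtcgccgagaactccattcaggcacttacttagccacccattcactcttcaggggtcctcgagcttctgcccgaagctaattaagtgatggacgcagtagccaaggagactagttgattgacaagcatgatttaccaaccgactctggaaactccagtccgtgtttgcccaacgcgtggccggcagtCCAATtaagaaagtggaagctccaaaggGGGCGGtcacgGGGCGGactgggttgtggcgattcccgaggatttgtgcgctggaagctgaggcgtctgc

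A window was found for 8 of the 9 genes, all except Mettl14. The ETS core was present in 3 of the 8 (Mettl3, Zc3h13 and Cbll1), against 9.12% of 27025 mouse promoter windows of the same length. GC boxes were present in 6 of the 8, against 35.9%, and CCAAT boxes in 3 (Wtap, Rbm15 and Alkbh5), against 37.9%. Rbm15b was the 1 gene with the E-box, which it held at 2 places, against 7.24% of all windows. The Fto window matched none of the 4. G and C made up 52.0% (Mettl3) to 75.3% (Rbm15b) of the 8 windows, beside a median of 52.7% over all windows. The part of this in the motif matches was not tested. Of the genes higher in lymphoid classes (given next) that had a window, Mettl3, Zc3h13 and Cbll1 held the ETS core and Rbm15 and Rbm15b lacked it, and Rbm15 held CCAAT boxes as did Wtap and Alkbh5. The windows of Mettl3, Zc3h13, Cbll1 and Fto span the outer start of the gene, and those of Wtap, Alkbh5, Rbm15 and Rbm15b lie inside it. Motifs at other starts of these genes were not examined. The letters describe the windows and show no binding.

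Among the compared classes, every writer other than Wtap stood higher in lymphoid than in myeloid classes on average, and this held in both libraries. The mean of the 6 lymphoid classes was set against the mean of the 3 myeloid classes, and 6 of the 9 genes were at least 1.5-fold higher in lymphoid classes in both libraries: Mettl3, Mettl14, Rbm15, Rbm15b, Zc3h13 and Cbll1. A gene was tested if its mean over the compared classes of both libraries was at least 10 CPM. More of these classes are lymphoid than myeloid, so the filter favours genes that are higher in lymphoid classes. Mettl3 and Mettl14 passed it through their lymphoid levels, with myeloid means of 8.43 and 8.31 CPM and of 8.89 and 7.09 CPM. Of 7910 genes tested in the same way, 27.4% were that much higher in both libraries and 18.6% that much lower, shares that carry the same lean. The median log2 difference of the 9 genes was 0.73 and 0.85, beside 0.11 and 0.22 for all 7910. Wtap, Alkbh5 and Fto were not called in either direction. With a pseudocount of 10 CPM in place of 1, which shrinks ratios of low genes, 3 of the 9 were called higher. B-like cells of the libraries held haemoglobin transcripts at 12776 and 7009 CPM and had the lowest median depth of the compared classes, 2262 and 3496 UMIs, and the part of this in the B-like levels was not tested.

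**Figure D1:**
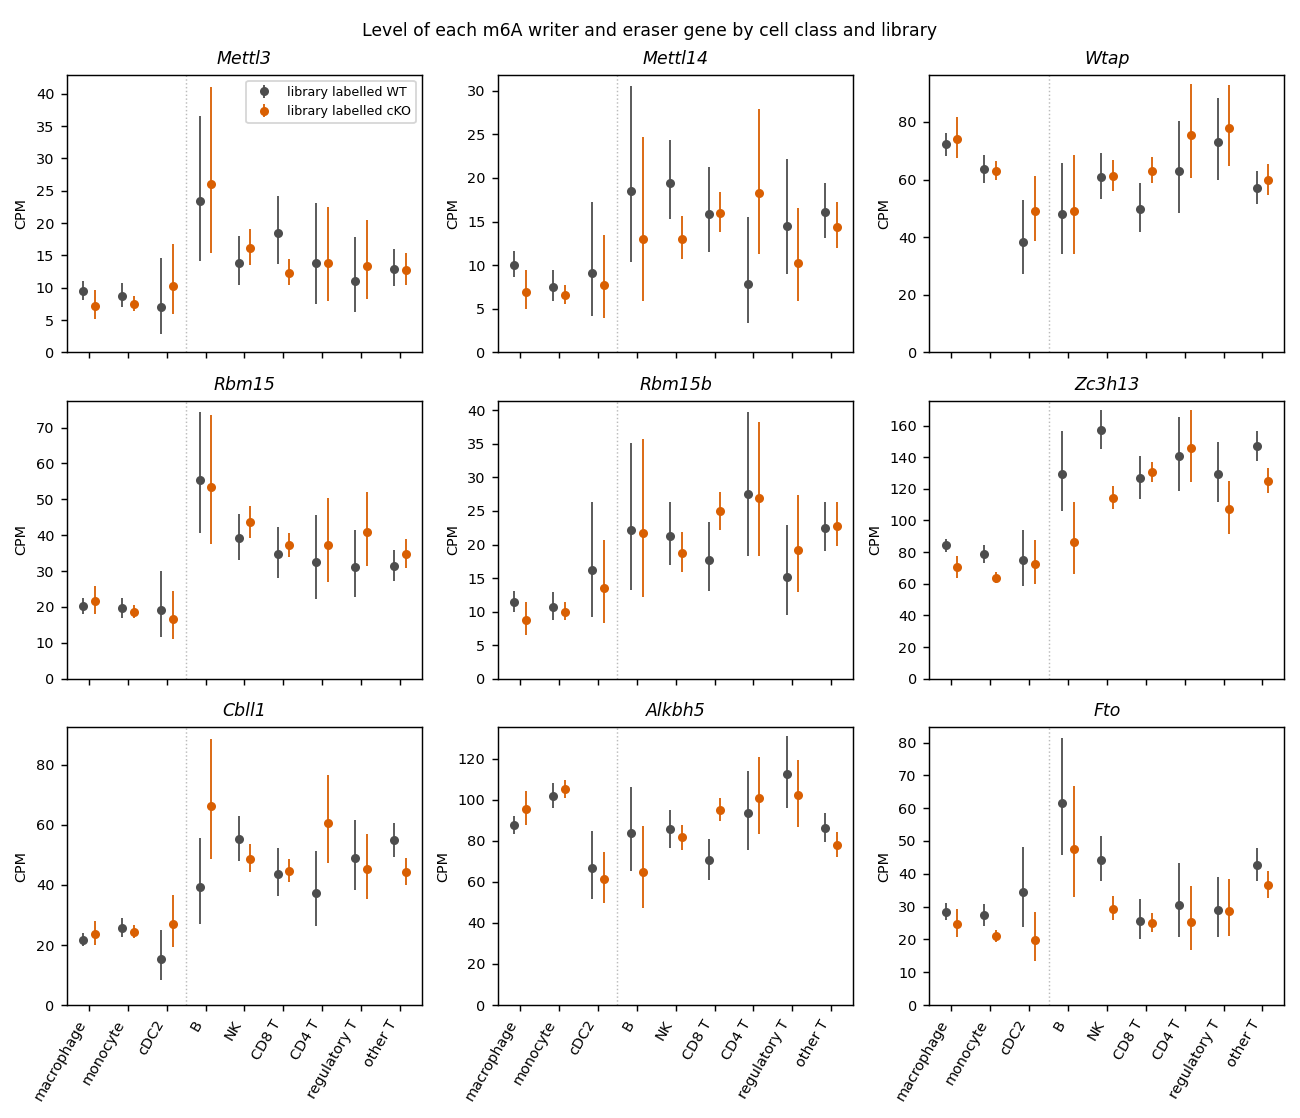
Level of each gene (CPM, linear axis from 0) in the 9 classes, with 1 point per library and bars for the exact 95% Poisson interval, and a dotted line between the 3 myeloid and 6 lymphoid classes. Zc3h13 runs from 63.8 CPM in monocyte-like to 157 CPM in NK-like cells, whereas Wtap and Alkbh5 show no step at the line.

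Mettl3, the catalytic subunit (ENSMUSG00000022160, chr14:52294841-52305128, minus strand), was counted with 1036 and 1041 UMIs over all kept cells. Macrophage-like cells held 9.51 and 7.14 CPM, monocyte-like cells 8.71 and 7.50 CPM and cDC2-like cells 7.08 and 10.3 CPM. The 12 lymphoid values ran from 11.0 to 26.0 CPM, all above the 6 myeloid values of 7.08 to 10.3 CPM. The lowest lymphoid value, of regulatory T-like cells of the library labelled WT (6.31 to 17.9), was above the highest myeloid one by less than counting error. B-like cells were highest, at 23.4 CPM (14.1 to 36.6) and 26.0 CPM (15.4 to 41.1), apart from the CD8 T-like cells that came next. The order below was less clear. Neighbours are said to overlap if the ranges spanned by their 2 libraries do, and to be apart if not. This rule leaves out counting error. The interval of B-like cells of the library labelled WT overlapped that of CD8 T-like cells there (13.7 to 24.2). CD8 T-like, NK-like and CD4 T-like cells overlapped in sequence, as did cDC2-like, macrophage-like and monocyte-like cells at the bottom. The lymphoid mean was 1.76-fold the myeloid mean in the library labelled WT and 1.80-fold in the library labelled cKO. Tox4 overlaps the gene over 1561 bases on the opposite strand, so its reads can be told apart only where counting used strand, which is not stated in the sources used here.

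Between the libraries Mettl3 passed the expression filter (10 CPM in either library, and 50 UMIs in the 2 together) in 3 of the 9 classes. In CD8 T-like cells it was 18.4 and 12.3 CPM, a log2 ratio of -0.55 and a ratio of 0.667 (0.482 to 0.935). That interval lies under 1, but the change stayed under 1.5-fold on the scale used. Of 11 alternative settings 2 put it past 1.5-fold lower, at -0.60 with median-of-ratios size factors and -0.59 with equal weight per cell, and the value nearest 0 was -0.22, with cells thinned to 1 depth. NK-like cells had the opposite sign, with 13.8 and 16.1 CPM and a ratio of 1.16 (0.843 to 1.63). Other T-like cells held nearly equal levels, 12.9 and 12.8 CPM.

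Mettl14, the RNA-binding partner of the catalytic subunit (ENSMUSG00000028114, chr3:123368297-123386108, minus strand), had 1107 and 1029 UMIs. It was lowest in monocyte-like cells, at 7.53 and 6.57 CPM, while macrophage-like cells held 10.0 and 6.97 CPM. NK-like cells were highest on average, at 19.4 and 13.0 CPM. The 6 lymphoid classes overlapped one another in sequence, so their order is not resolved. The lymphoid mean was 1.66-fold and 1.87-fold the myeloid mean. The 12 lymphoid values (7.86 to 19.4 CPM) met the myeloid ones (6.57 to 10.0 CPM), because CD4 T-like cells of the library labelled WT held 7.86 CPM (3.39 to 15.5).

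Mettl14 was lower in the library labelled cKO in NK-like cells, with a ratio of 0.670 (0.496 to 0.909) and a log2 ratio of -0.54. In macrophage-like cells the ratio was 0.696 (0.481 to 0.985), with a log2 ratio of -0.47. Neither reached 1.5-fold. The NK-like value ran from -0.59 without cycling cells, just past 1.5-fold lower, to -0.29 with cells thinned to 1 depth. The macrophage-like value was -0.61 with stricter gates, also past 1.5-fold lower, and turned to 0.05 when classes were taken from clusters. NK-like cells themselves differed between the libraries. Their 5 NK markers summed to 2448 and 1614 CPM and the 8 macrophage markers to 439 and 123 CPM, with median depths of 3514 and 5772.5 UMIs. In each of the 6 lymphoid classes the macrophage markers were higher in the library labelled WT. The part of this in the NK-like ratios of Mettl14, Zc3h13 and Fto was not tested. Macrophage-like cells also differed between the libraries in make-up. Cycling cells were 37.8% and 8.31% of them, and 26.5% and 69.5% also passed the monocyte markers. The 6 monocyte markers summed to 1508.5 and 6329.5 CPM there, and the 8 macrophage markers to 14358 and 7032 CPM. Within the library labelled WT, Mettl14 was 11.7 CPM in cycling and 8.31 CPM in other macrophage-like cells. In the library labelled cKO the values were 11.1 CPM, from 7 UMIs, and 6.46 CPM. The part of the cycling cells and of the monocyte markers in the macrophage-like ratios of all 9 genes was not tested.

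Wtap, the adaptor that anchors the pair in nuclear speckles (ENSMUSG00000060475, chr17:12966796-12994169, minus strand), had 6237 and 6328 UMIs. It was the writer without a lymphoid excess, with a lymphoid mean 1.01-fold and 1.04-fold the myeloid mean. Regulatory T-like cells were highest, at 73.1 and 77.8 CPM, and overlapped macrophage-like cells, at 72.2 and 74.2 CPM. Monocyte-like cells held 63.6 and 63.0 CPM. B-like cells (48.1 and 49.1 CPM) and cDC2-like cells (38.4 and 48.9 CPM) were lowest and overlapped. High and low classes of Wtap thus came from both lineages, and the span from top to bottom was 1.73-fold, beside 3.05-fold for Mettl3.

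Wtap passed the filter in all 9 classes and was called in none. Its log2 ratio was above 0 in 8 of them and -0.01 in monocyte-like cells. The interval left out 1 in CD8 T-like cells alone, where Wtap was 49.8 and 63.1 CPM, a ratio of 1.27 (1.06 to 1.53). In macrophage-like cells the ratio was 1.03 (0.919 to 1.15) and in NK-like cells 1.00 (0.860 to 1.18). B-like cells, with 73 UMIs, had a ratio of 1.02 within a wider interval (0.625 to 1.66).

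Zc3h13, a zinc-finger subunit that holds the complex in the nucleus (ENSMUSG00000022000, chr14:75284373-75344426, plus strand), had 9853 and 9346 UMIs, which made its levels among the best counted of the 9. Its myeloid levels were 84.2 and 70.4 CPM (macrophage-like), 78.8 and 63.8 CPM (monocyte-like) and 74.9 and 72.7 CPM (cDC2-like). Lymphoid values ran from 86.6 to 157 CPM, above all 6 myeloid values, the lowest of them (B-like cells of the library labelled cKO) by less than its counting error. CD4 T-like cells were highest, at 140.4 and 146 CPM. The 6 lymphoid classes overlapped in sequence, as did the 3 myeloid classes. The resolved step was thus the one between these groups of classes, of 1.74-fold and 1.71-fold. Classes left out for few cells did not all follow it. Non-classical monocyte-like cells held 137 CPM (101 to 182) and 90.6 CPM, and mature dendritic-like cells 85.5 and 92.4 CPM. Neutrophil-like cells held 20.1 and 29.8 CPM.

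Zc3h13 was lower in the library labelled cKO in 7 of 9 classes by the sign of its log2 ratio, and in 5 of these the interval lay under 1. Among 3259 genes that passed the filter in every compared class, 28.0% had 7 or more classes under 0. The ratio was 0.728 in NK-like cells (0.658 to 0.807), where the levels were 157 and 114 CPM. It was 0.810 in monocyte-like cells (0.742 to 0.885), 0.836 in macrophage-like cells (0.747 to 0.934) and 0.852 in other T-like cells (0.780 to 0.930). B-like cells had the lowest ratio, 0.669 (0.479 to 0.927), from 129 and 86.6 CPM. At a log2 ratio of -0.57 this fell just inside 1.5-fold. It passed 1.5-fold lower under 6 of 11 alternative settings, down to -0.82 with cells thinned to 1 depth, and became -0.16 with at most 5% mitochondrial UMIs per cell. As the classes were set, none of the 9 was called. CD8 T-like and CD4 T-like cells were nearly level, at 127 and 131 CPM and at 140.4 and 146 CPM. Median-of-ratios scaling raised log2 ratios by 0.13 in macrophage-like and 0.11 in monocyte-like cells, and Zc3h13 then stood at -0.12 and -0.19 there.

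Cbll1, an E3 ubiquitin ligase also known as Hakai that joins the complex (ENSMUSG00000020659, chr12:31484829-31499616, minus strand), had 3063 and 3444 UMIs. It showed the widest gap between lineages in the library labelled WT among the 9 genes, with a lymphoid mean 2.17-fold the myeloid mean, and 2.02-fold in the library labelled cKO. The lymphoid values were 37.3 to 66.4 CPM and the myeloid values 15.2 to 27.0 CPM. B-like cells were highest on average, and the classes overlapped in sequence from there down to regulatory T-like cells. CD8 T-like cells came below them, by less than counting error. Monocyte-like cells held 25.8 and 24.4 CPM and macrophage-like cells 21.8 and 23.7 CPM. The antisense gene Gm29542 overlaps it over 932 bases and was near 0 in monocyte-like cells, at 0.196 and 0.0469 CPM.

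Cbll1 gave all 3 of the calls above 1.5-fold among 67 gene-by-class pairs that passed the filter, of 81 in all. Over all genes, 4.74% of the pairs were called higher. In B-like cells it was 39.5 CPM (27.0 to 55.7) and 66.4 CPM (48.6 to 88.6), a ratio of 1.68 (1.05 to 2.73) from 78 UMIs. In CD4 T-like cells it was 37.3 CPM (26.4 to 51.2) and 60.8 CPM (47.4 to 76.8), a ratio of 1.63 (1.08 to 2.48) from 108 UMIs. The cDC2-like values were 15.2 CPM (8.49 to 25.02) and 27.0 CPM (19.5 to 36.5), and the interval of their ratio, 0.968 to 3.46, holds 1. All 3 rest on few UMIs, and their log2 ratios stayed past 1.5-fold under 10, 7 and 7 of 11 alternative settings, or 9, 6 and 5 where the pair also had to pass the filter in that setting. The lowest log2 ratio under any of these was 0.35 in B-like, 0.16 in CD4 T-like and 0.18 in cDC2-like cells. Monocyte-like cells, with 784 UMIs, and CD8 T-like cells, with 671, showed no such difference. The ratio was 0.944 (0.813 to 1.10) in monocyte-like and 1.02 (0.839 to 1.26) in CD8 T-like cells. Other T-like cells, with 741 UMIs, held less Cbll1 in the library labelled cKO: 54.9 and 44.3 CPM, a ratio of 0.808 (0.697 to 0.935).

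Rbm15, an RNA-binding protein that recruits the complex to transcripts (ENSMUSG00000048109, chr3:107325421-107333673, minus strand), had 2368 and 2752 UMIs. B-like cells were highest, with 55.5 and 53.4 CPM, and NK-like cells followed with 39.1 and 43.5 CPM, with overlapping counting intervals. Regulatory T-like, CD8 T-like, CD4 T-like and other T-like cells overlapped in sequence. The myeloid values were lower, at 20.1 and 21.6 CPM in macrophage-like, 19.7 and 18.7 CPM in monocyte-like and 19.2 and 16.7 CPM in cDC2-like cells. All 12 lymphoid values (31.0 to 55.5 CPM) lay above all 6 myeloid ones, and the lymphoid mean was 1.85-fold and 2.11-fold the myeloid mean.

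Between the libraries Rbm15 passed the filter in 8 classes, was called in none, and every interval held 1. In regulatory T-like cells the log2 ratio of 0.39 passed 1.5-fold higher under 3 of 11 alternative settings, at 0.80 with equal weight per cell, 0.83 without cycling cells and 1.01 with cells thinned to 1 depth. In CD4 T-like cells it went from 0.20 to 0.77 in thinned cells, and both thinned values were under the filter. The ratio was 1.07 (0.867 to 1.32) in macrophage-like, 0.949 (0.799 to 1.13) in monocyte-like and 1.11 (0.919 to 1.35) in NK-like cells. It was higher in cycling than in other cells of the CD8 T-like class. The levels were 47.6 against 29.0 CPM in the library labelled WT, and 47.1 against 32.5 CPM in the library labelled cKO. Cbll1 ran the other way in the same cells, with 32.1 against 48.7 CPM and 35.5 against 49.0 CPM. Cycling cells were called from 2 or more of 6 proliferation markers and were deeper, with median depths of 9052 and 13492 UMIs against 4866 and 6750.5. The part of depth in these differences was not tested.

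Rbm15b, the paralogue of Rbm15 with the same role (ENSMUSG00000074102, chr9:106880918-106887428, minus strand), had 1488 and 1615 UMIs. Its counts are uncertain, because all 6511 bases of the gene lie within the span of Manf on the same strand. Monocyte-like cells held Manf at 233 and 292 CPM, and the sources used here do not say how shared reads were split. The level of Rbm15b was 11.4 and 8.71 CPM in macrophage-like and 10.7 and 9.99 CPM in monocyte-like cells, which overlapped at the bottom. CD4 T-like cells were highest, with 27.5 and 26.9 CPM, but their counting intervals overlapped those of the next class, other T-like cells. The lymphoid mean was 1.60-fold and 1.99-fold the myeloid mean, and the cDC2-like value of 16.2 CPM lay within the lymphoid range. In CD8 T-like cells it was 17.7 and 24.9 CPM, a ratio of 1.41 (1.04 to 1.95) that stayed under 1.5-fold. Plasmacytoid dendritic-like cells, which fell under 100 cells in the library labelled cKO, held 49.2 CPM (37.9 to 62.9) and 28.0 CPM (16.01 to 45.5) from 64 and 16 UMIs. Both values were above the Rbm15b level of every compared class, the second by less than its counting error.

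Alkbh5, the first of the erasers (ENSMUSG00000042650, chr11:60536381-60558512, plus strand), had 9755 and 9484 UMIs. It was level across lineages, with a lymphoid mean 1.04-fold and 0.998-fold the myeloid mean. Regulatory T-like cells, at 112 and 102 CPM, and monocyte-like cells, at 102 and 105 CPM, overlapped at the top. CD4 T-like cells held 93.3 and 101 CPM and macrophage-like cells 87.6 and 95.7 CPM. B-like cells (83.9 and 65.0 CPM) and cDC2-like cells (66.8 and 61.1 CPM) overlapped at the bottom, and the span from top to bottom was 1.68-fold.

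Between the libraries Alkbh5 was called in none of 9 classes. In cDC2-like cells the log2 ratio of -0.13 turned to 0.69, past 1.5-fold higher, with stricter gates that left 53 and 56 cells. It was higher in the library labelled cKO in CD8 T-like cells, at 70.4 CPM (60.8 to 81.0) and 95.2 CPM (89.8 to 101), a ratio of 1.35 (1.16 to 1.58). The log2 ratio was 0.43 there and kept its sign under all 11 alternative settings. In monocyte-like cells the ratio was 1.03 (0.957 to 1.11). CD8 T-like cells were the class in which Wtap and Alkbh5 both had intervals above 1, and Rbm15b too, while that of Mettl3 lay below it. The class held 427 and 1357 cells, with median depths of 5162 and 7179 UMIs and 16.6 and 16.9% cycling cells.

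Fto, the second eraser (ENSMUSG00000055932, chr8:91313525-91668439, plus strand), had 3240 and 2625 UMIs. B-like cells were highest, with 61.7 and 47.6 CPM, followed by other T-like cells, with 42.6 and 36.5 CPM, and NK-like cells, with 44.3 and 29.3 CPM. The counting intervals of B-like and other T-like cells overlapped in each library. The other 6 classes overlapped in sequence from regulatory T-like (29.0 and 28.7 CPM) to monocyte-like cells (27.3 and 21.0 CPM), so CD8 T-like cells (25.6 and 24.9 CPM) were at the level of macrophage-like cells (28.4 and 24.7 CPM). The lymphoid mean was 1.29-fold and 1.44-fold the myeloid mean, under 1.5-fold in both libraries. Antisense genes overlap Fto, and 2 of them in the count table, 4831440D22Rik and Gm3235, were at or near 0 in monocyte-like cells.

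Fto had a log2 ratio under 0 in all 9 classes, which 3.84% of the 3259 genes passing in every class also had. The ratio was 0.663 (0.544 to 0.809) in NK-like cells, where the levels were 44.3 and 29.3 CPM. That is 1.51-fold lower in CPM but just inside the threshold on the scale with the pseudocount, at a log2 ratio of -0.58. In monocyte-like cells the ratio was 0.768 (0.660 to 0.895), from 726 UMIs. The cDC2-like pair was the 1 pair of 67 called lower, against 5.73% over all genes, with 34.4 CPM (23.8 to 48.1) and 19.9 CPM (13.6 to 28.3), a ratio of 0.580 (0.345 to 0.973) from 65 UMIs. Its log2 ratio of -0.76 stayed past 1.5-fold under 9 of 11 alternative settings, in 8 of which the pair also passed the filter, and did not with cells thinned to 1 depth (-0.36) or a pseudocount of 10 CPM (-0.57). The NK-like pair passed 1.5-fold lower under 3 of the 11, down to -0.64 without cycling cells. Regulatory T-like and CD8 T-like cells were nearly level, with log2 ratios of -0.01 and -0.04. The sign held under all 11 alternative settings in B-like, CD4 T-like, NK-like, cDC2-like, monocyte-like and other T-like cells. It turned under at least 1 setting in macrophage-like (0.02, classes from clusters), CD8 T-like (0.07, doublets kept) and regulatory T-like cells (0.16, cells thinned to 1 depth).

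**Figure D2:**
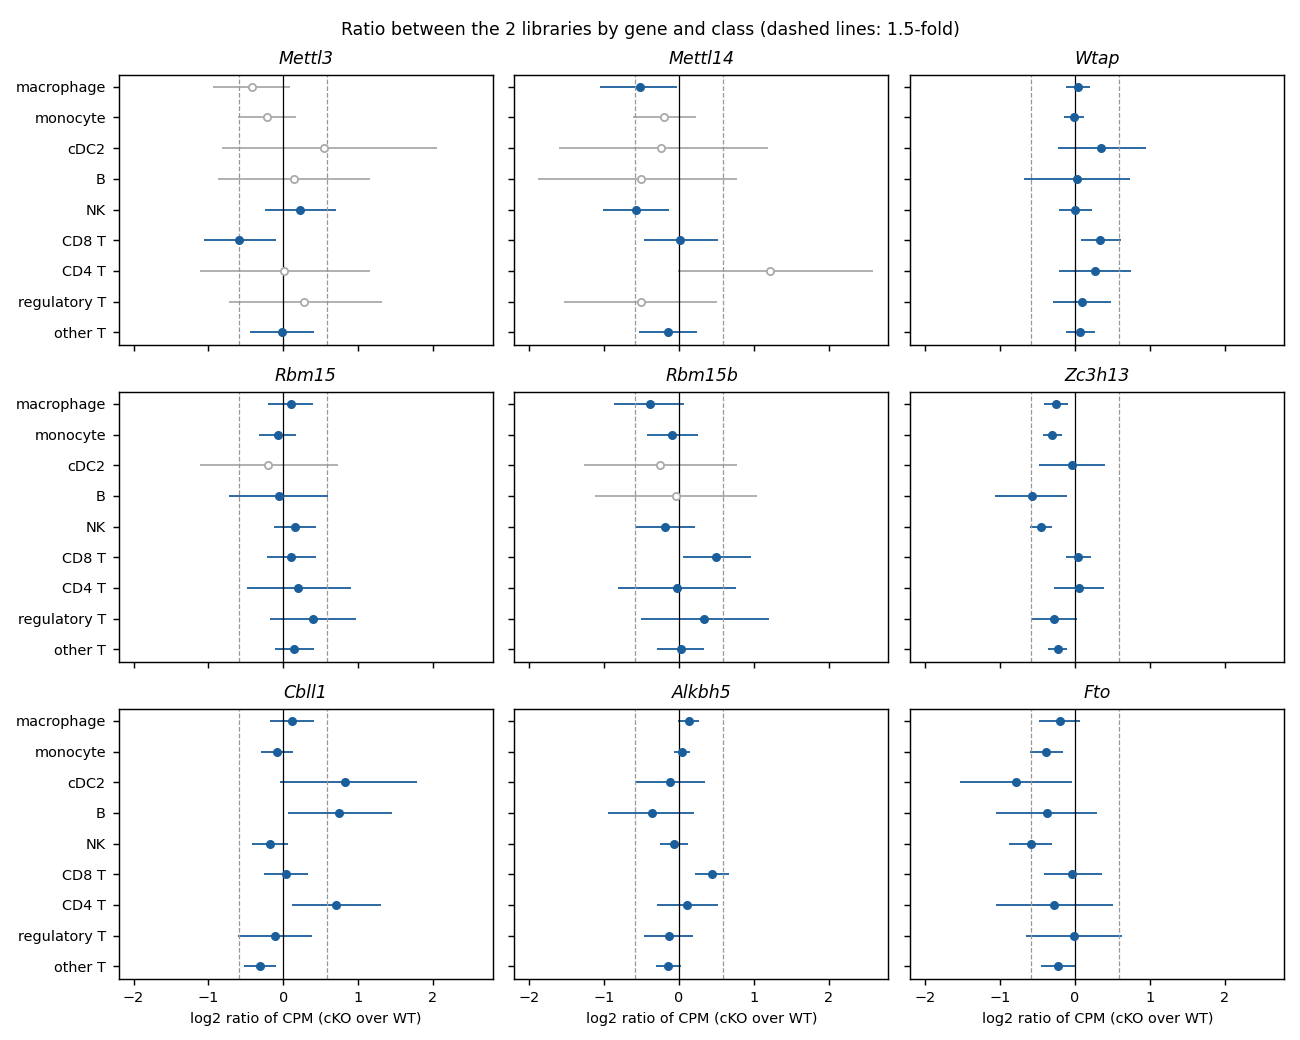
Ratio of CPM between the libraries (log2, the library labelled cKO over the library labelled WT, without a pseudocount) for each gene and class, with 95% counting intervals, dashed lines at 1.5-fold and open grey points for pairs that did not pass the expression filter. Fto lies left of 0 in all 9 classes and Zc3h13 in 7, and Cbll1 lies right of the dashed line in cDC2-like, B-like and CD4 T-like cells.

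Counted by class, few of the 9 genes were called. In macrophage-like cells 0 of the 8 that passed the filter were called, where 10.9% of all genes were higher and 17.2% lower, and their median log2 ratio was -0.08 beside -0.13. In monocyte-like cells 0 of 7 were called (3.64% and 3.84% of all genes), with medians of -0.08 and -0.11. In cDC2-like cells 1 of 5 was higher and 1 lower (5.44% and 4.29%). With 5 genes, that count is too small to set against the background. B-like cells had 1 of 6 higher and 0 lower (3.46% and 5.53%), with medians of -0.21 and -0.04. CD4 T-like cells had 1 of 7 higher and 0 lower (4.36% and 5.35%), with medians of 0.11 and -0.03.

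No member was called in the remaining lymphoid classes. In CD8 T-like cells that was 0 of 9 (6.07% of all genes higher and 4.39% lower), with medians of 0.04 and 0.06. In NK-like cells it was 0 of 9 (1.46% and 2.75%), with medians of -0.18 for the members and -0.06 for all genes. Regulatory T-like cells had 0 of 7 (3.37% and 4.55%) and other T-like cells 0 of 9 (3.13% and 2.62%). Median-of-ratios scaling turned the members' median to 0.05 in macrophage-like, 0.03 in monocyte-like and -0.01 in CD8 T-like cells, so no direction is given for the group there.

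**Figure D3:**
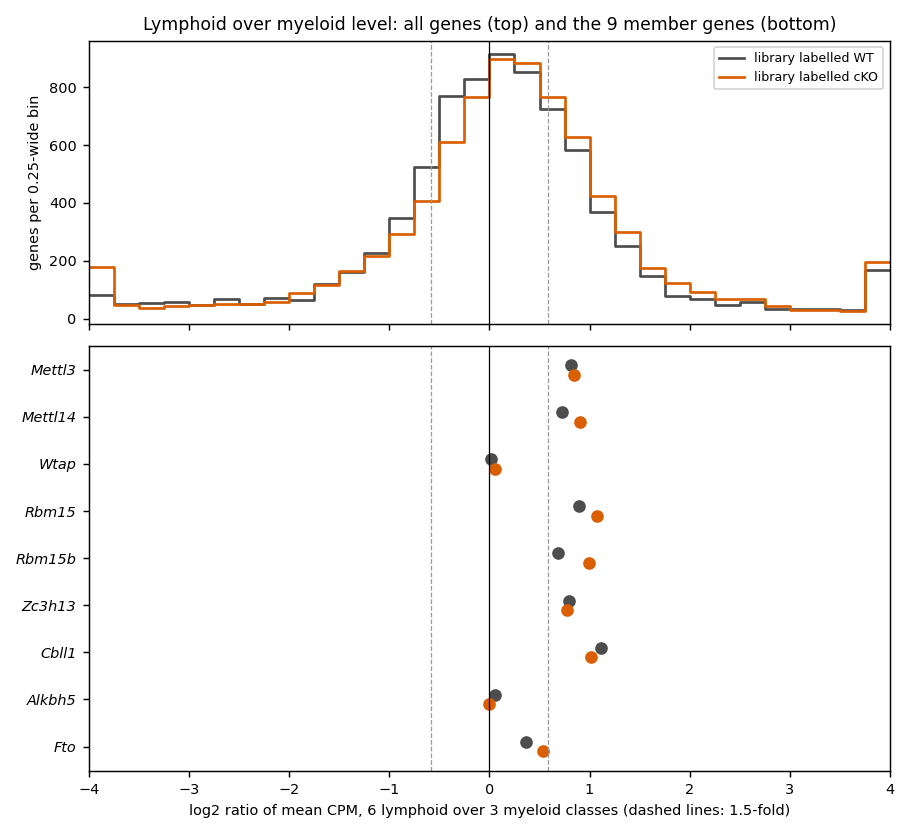
Log2 ratio of the mean CPM of 6 lymphoid classes over that of 3 myeloid classes, for all 7910 genes tested (top, genes per bin, end bins hold all values beyond) and for the 9 genes (bottom, 1 point per library). The 6 writers Mettl3, Mettl14, Rbm15, Rbm15b, Zc3h13 and Cbll1 lie right of the dashed line at 1.5-fold in both libraries, Wtap and Alkbh5 lie at 0, and Fto lies between.

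For 4 genes, Mettl3, Rbm15, Zc3h13 and Cbll1, every lymphoid value of either library lay above every myeloid value, a separation that 14.6% of all genes tested also had. In each of the 4 the counting interval of the lowest lymphoid value overlapped that of the highest myeloid value. Other genes of the pathway were taken as whole lists. Among 6 further RNA methyltransferase genes, 3 were at least 1.5-fold higher in lymphoid classes in both libraries, including Virma, the large scaffold of the same complex, at 1.78-fold and 1.88-fold. Among m6A readers and other m6A-binding proteins 2 of the 11 that could be tested were that much higher, among S-adenosylmethionine genes 1 of 3, and among other AlkB homologues 2 of 4. None of the tested genes of these lists was that much lower in lymphoid classes in both libraries. The filter on the mean, however, leaves out genes low in lymphoid classes more readily than genes low in myeloid classes. Among list genes whose mean was too low to be tested, Igf2bp2, an m6A-binding protein, ran the other way. Its lymphoid and myeloid means were 2.10 and 11.2 CPM in the library labelled WT and 2.08 and 14.3 CPM in the library labelled cKO. Its relative Igf2bp3, also untested, was higher in lymphoid classes, with 12.0 and 2.91 CPM and then 14.8 and 2.06 CPM. Both were chosen after their values were seen.

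The genes with a lymphoid excess also followed one another over the 18 class-by-library sums (9 classes in 2 libraries). Pearson's r of log2(CPM + 1) lay between 0.57 (Mettl3 with Zc3h13) and 0.89 (Mettl3 with Rbm15) among Mettl3, Mettl14, Rbm15, Rbm15b, Zc3h13 and Cbll1. Wtap and Alkbh5 followed each other, with r of 0.82, and were nearly unrelated to those 6: r ran from -0.22 to 0.21 for Wtap and from -0.30 to 0.18 for Alkbh5. Fto was between, with r of 0.37 to 0.64 with the 6, -0.37 with Wtap and -0.23 with Alkbh5. These values describe the 18 sums, which share 2 libraries and their depth, and the step between lineages enters every value.

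**Figure D4:**
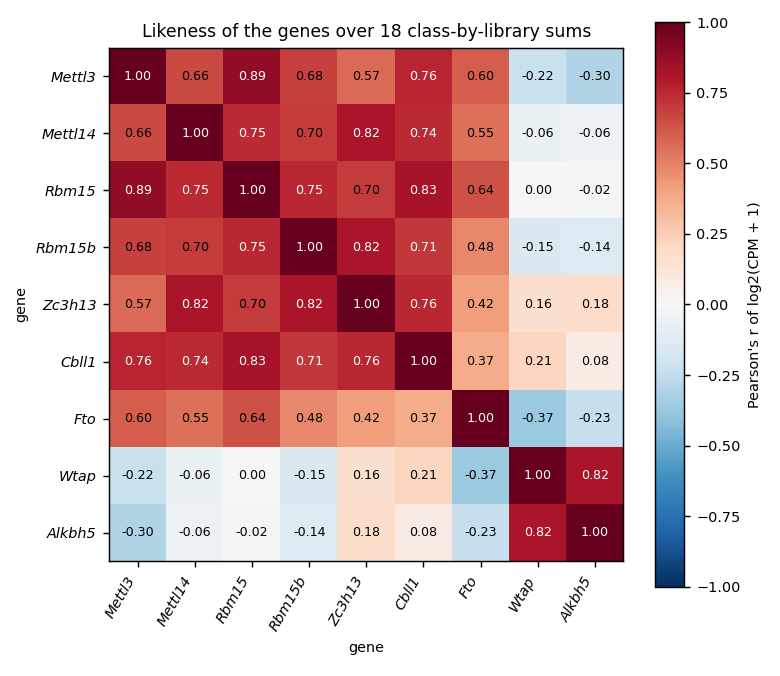
Pearson's r of log2(CPM + 1) between the 9 genes over 18 class-by-library sums, on a scale from -1 (blue) to 1 (red). The 6 writers with a lymphoid excess form a block of 0.57 to 0.89, and Wtap and Alkbh5 form a pair at 0.82.

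Among 7294 genes searched, those most like Mettl3 were Bcl7a (r of 0.93), Strbp (0.92) and Txnip (0.92), and those most like Mettl14 were Zfp142 (0.92), Guf1 (0.91) and Sec61a2 (0.90). Rbm15 was most like Fli1 (0.96), an ETS transcription factor of blood cells, Nfatc3 (0.95) and Trim26 (0.95). The nearest genes were Asb3, Cdk12 and Herc3 for Rbm15b (each 0.94), Ldb1, Stim1 and Ubr2 for Zc3h13 (0.95, 0.95 and 0.94), and Dido1, Med4 and Wdr20 for Cbll1 (0.95, 0.94 and 0.93). Wtap had more distant neighbours, Galc (0.86), Eea1 (0.86) and Eaf1 (0.84). Alkbh5 was most like Prdm1 (0.91), which encodes the repressor Blimp-1, then Plagl2 (0.87) and Phlda1 (0.86). Fto was nearest to Atf7 (0.91), Ppp1r13b (0.89) and Cwf19l2 (0.86).

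Neutrophil-like cells, with 135 and 34 cells, were too few to enter the comparison but differed in which of the 9 genes they held. Alkbh5 stood at 129 CPM (88.1 to 182) and 129 CPM (68.7 to 221), from 32 and 13 UMIs. The other 8 genes together had 15 and 10 UMIs, that is, 60.4 CPM (33.8 to 99.5) and 99.2 CPM (47.6 to 182), whereas the same 8 summed to between 214 and 411 CPM in the compared classes. Alkbh5 was thus 0.55 and 0.56 above the mean of the compared classes on the log2 scale, in a class where the median of all genes was -1.09 and -1.17. At or above that mean in both libraries were 17.7% of all genes tested, and 52.2% were at least 1.5-fold lower in both. Mettl14, Rbm15b and Fto had no UMI in the library labelled WT, where the exact interval of a count of 0 reaches 14.8 CPM. Mettl3, Mettl14, Rbm15 and Rbm15b had none in the library labelled cKO, where it reaches 36.6 CPM. The median depth of these cells was 1686 and 2734 UMIs, and 10 stress-response genes such as Fos and Hspa1a summed to 11568 and 14161 CPM, beside 7888 and 7279 CPM in monocyte-like cells. The part of stress and depth was not tested, and fewer transcripts of a gene cannot be told apart from a larger pool of the others in CPM.

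**Figure D5:**
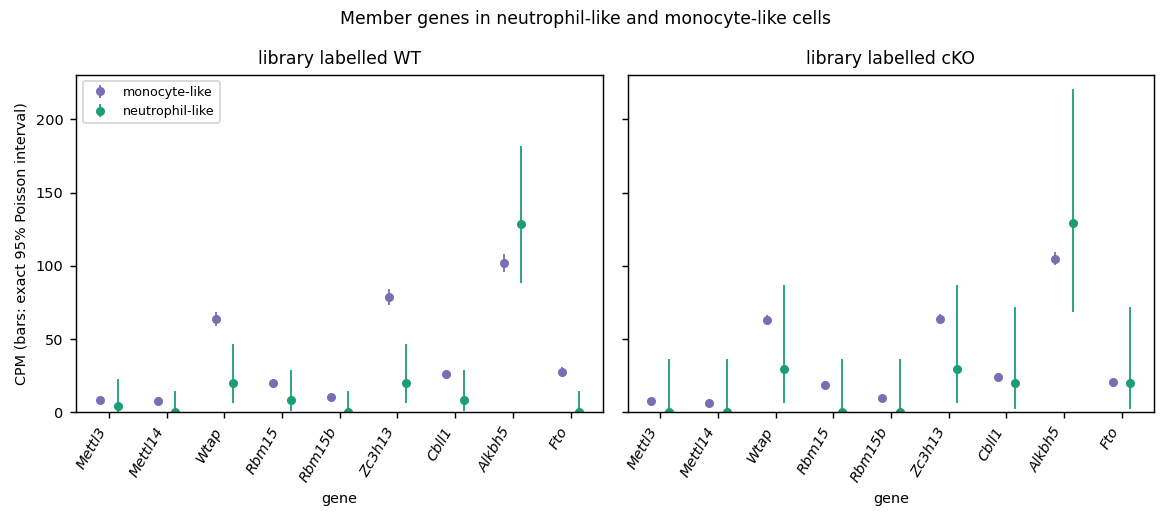
Level of each gene (CPM, linear axis from 0) in neutrophil-like and monocyte-like cells of each library, with bars for the exact 95% Poisson interval. Alkbh5 is the gene whose neutrophil-like point lies above its monocyte-like point in both panels, and their intervals overlap.

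The rest of the pathway showed few differences between the libraries in myeloid cells. In macrophage-like cells 1 of 6 other methyltransferase genes was called lower and none higher: Mettl16, which methylates a structured site in other RNAs, at 31.0 and 19.7 CPM (0.514 to 0.779 for the ratio). Of 12 readers and binders that passed, 1 was higher, Ythdf2 itself, and 1 lower, the nuclear RNA-binding protein Rbmx, at 19.5 and 9.76 CPM (0.370 to 0.664). Of 6 AlkB homologues 1 was lower, the tRNA-modifying enzyme Alkbh8, at 11.9 and 5.75 CPM (0.325 to 0.701), and of 3 S-adenosylmethionine genes none was called. In monocyte-like cells the calls were Ythdf2 and Igf2bp2, a reader that stabilises bound transcripts, at 9.20 and 15.3 CPM (1.32 to 2.11). Those were 2 of 12 readers and binders, both higher, and none of 5 methyltransferase, 3 S-adenosylmethionine or 2 AlkB genes was called. In each of the other 7 classes no list had more than 1 gene called in the same direction. In macrophage-like cells 17.2% of all genes were called lower, so 1 gene of 6 or of 12 is near or under the background.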

How the data were processed

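CD45+ tumour cells of 1 library labelled WT and 1 labelled Ythdf2 cKO were measured with 10x 5′ chemistry. The deposited values are UMI counts per gene and cell barcode, made by the authors on mm10. Cell Ranger 5.0.1 and Seurat 4.0.4 are the tools listed, per the submitters' processing notes, whereas the matrix was written by cellranger 5.0.0, per the file headers. Annotation release and counting options: not given in the sources used here. The files held 14404 and 11398 barcodes with 128952491 and 121321782 UMIs.

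Barcodes with under 200 genes or over 10% mitochondrial UMIs were left out, which kept 12179 and 9865. Scrublet in scanpy 1.11.5 called 2 and 0 doublets by its automatic threshold, which had not worked, so the highest scores at 0.8% per 1000 cells were removed (1187 and 779). A cell joined a class when it had a UMI of enough markers of 1 panel and of no other (for example 6 of 8 macrophage, 4 of 6 monocyte or 2 of 3 Cd3 genes). Cells passing the macrophage and monocyte panels counted as macrophage-like. UMIs were summed per class and library with Python 3.11.15, numpy 2.4.6 and pandas 2.3.3. Ratios used a pseudocount of 1 CPM and genes with 10 CPM or more in either library and 50 UMIs or more in total. Poisson and conditional binomial intervals came from scipy 1.17.1. The conditional binomial ones were tested on counts simulated as Poisson, which hold no variation between cells. Coordinates came from GENCODE vM21 on GRCm38, and promoter windows from RefSeq.

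All 9 genes are named. Other pathway genes are named where called in macrophage-like or monocyte-like cells, and the 3 nearest genes by r over classes. The 9 genes and the lists were chosen with earlier results of these data known.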

Additional observations from a re-analysis of the deposited data

How the results depend on the processing

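The results were recomputed under 11 alternatives, all of which were run. With 1 library per label nothing bears on differences between mice, and depth limits the rarer genes: 67 of 81 gene-by-class pairs passed the filter. No paired analysis was possible because each label has 1 library and no replicate. None of the 4 called pairs changed sign. Many of the other pairs changed sign under at least 1 setting, and Mettl14 in CD8 T-like cells kept its sign under 4 of 11. The 1 pair that turned and also went past 1.5-fold was Alkbh5 in cDC2-like cells, from -0.13 to 0.69 with stricter gates.

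The number of pairs at least 1.5-fold higher, 3 as reported, was 2 with at most 5% mitochondrial UMIs and 2 without cycling cells. It was 1 with classes from Leiden clusters, 0 with cells thinned to 1 depth and 1 with a pseudocount of 10 CPM. Each count takes the pairs that pass the filter in its own setting. Thinning left 53 of the 67 pairs over it, and without that filter 5 thinned pairs were past 1.5-fold higher and 3 lower. The number at least 1.5-fold lower, 1 as reported, was 2 with at most 5% mitochondrial UMIs, 3 with doublets kept, 2 with Leiden clusters, 2 with stricter gates, 2 with median-of-ratios size factors, 3 with equal weight per cell, 0 with a pseudocount of 10 CPM and 4 without cycling cells. The 6 genes at least 1.5-fold higher in lymphoid classes became 3 with a pseudocount of 10 CPM, which pulls low genes towards no difference by construction, and 5 with stricter gates or thinned cells. The median log2 ratio in cDC2-like cells moved from -0.04 to 0.69 with stricter gates, which left 53 and 56 cells. The medians of the other 8 classes moved by less than their spread among the genes. Of the 67 pairs, 4 moved beyond their counting interval with Leiden clusters, 7 with thinned cells, 2 with stricter gates and 1 with median-of-ratios size factors. Beyond those constructions the cause was not tested.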

Other observations

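Classes under 100 cells in a library gave a few further levels, as CPM with exact 95% intervals for counting error. They enter no comparison and were chosen after their values were seen. Zc3h13 stood at 217 CPM (175 to 266) in gamma delta T-like cells of the library labelled WT, from 91 UMIs, above its level in every compared class, and at 110.5 CPM (77.4 to 153) in the library labelled cKO, from 36 UMIs. Alkbh5 stood at 51.5 CPM (30.5 to 81.4) in non-classical monocyte-like cells of the library labelled WT, from 18 UMIs in 69 cells. In the library labelled cKO it was 119 CPM (89.6 to 156), from 54 UMIs in 58 cells, and these intervals do not overlap. Mettl14 had 1 and 2 UMIs in the same cells, too few for a level.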
